A study of Rattus norvegicus with 325 samples.

Results

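Metallothioneins are small, cysteine-rich proteins that bind zinc, copper and cadmium in the cytosol. Their genes are classical targets of the metal-responsive transcription factor Mtf1, which responds to free zinc and binds metal response elements in their promoters, and they are also raised by glucocorticoids, oxidants and inflammatory cytokines. Cellular zinc is further set by 2 families of membrane transporters, the Slc30 family, whose members move zinc out of the cytosol, and the Slc39 family, whose members move it in. In skeletal muscle, metallothionein transcripts are known to be raised in several forms of wasting.

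The 5 genes described here are the metallothioneins Mt1a, Mt2A and Mt3, the plasma membrane zinc exporter Slc30a1 (also called ZnT1) and the zinc importer Slc39a14 (ZIP14, which can also carry iron and manganese). They were chosen by symbol from the 17315 distinct symbols of the count files, and each was found on 1 line. Their RNA was followed in bulk libraries from male rats of the outbred Sprague Dawley strain, 83 of the diaphragm, 73 of the gastrocnemius, 84 of the soleus and 85 of the tibialis anterior (TA). The rats were 6, 9, 12 or 18 months old, or 21, 24 or 27 months. Age was the only condition, no agent or altered allele is named for any group, and the rats of 6 months served as the reference. Each group of 1 muscle and 1 age held 9 to 13 libraries. The labels do not tie libraries to animals, and all tissues of 1 age were collected on a single day, so that age and day of collection cannot be told apart. Library totals ran from 17555294 to 85316329 counts. Levels are given as CPM, counts scaled to the library total with TMM factors over all libraries, and log2 CPM carries a prior count of 0.5. Transcript lengths of the authors' gene model were not used here, so levels were compared between groups and not between genes.

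Genes that mark muscle fibres (Acta1, Ckm, Des, Mb, Myh4 and Myh7) were abundant everywhere, with a summed level of 59853 CPM or more in each library of 6 and 27 months in the diaphragm and 45941 CPM or more in the limb muscles. These are tissue pieces, and in such bulk RNA a change in the number of cells that express a gene and a change of RNA per cell cannot be told apart.

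All 5 genes passed the filter on low counts in each of the 4 muscles. Counts of Slc30a1 lay between 273 and 1626 and those of Slc39a14 between 491 and 2325 in every library. Mt1a had 18 to 6804 counts, Mt2A 0 to 1721 and Mt3 1 to 109, so that the values of Mt3, and those of Mt2A in young diaphragm and soleus, rest on few reads. Metallothionein genes and pseudogenes are close in sequence, and reads shared with such copies would make the counts of single metallothioneins uncertain.

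The promoters are shown for their matches to metal response elements, the sequences that Mtf1 binds. Mt1a is named Mt1 in the RefSeq table used here, and the 3 metallothionein genes are neighbours on chromosome 19 of the GRCr8 assembly, a later build than the one the counts were made on. The 250 bases before the start of each gene are printed 5′ to 3′ on the strand of the gene, from RefSeq (GRCr8), with the cores of metal response elements in capitals. The cores searched were TGCACNC and TGCGCNC, on both strands.
Mt1a, chr19:10832976-10833225, minus strand: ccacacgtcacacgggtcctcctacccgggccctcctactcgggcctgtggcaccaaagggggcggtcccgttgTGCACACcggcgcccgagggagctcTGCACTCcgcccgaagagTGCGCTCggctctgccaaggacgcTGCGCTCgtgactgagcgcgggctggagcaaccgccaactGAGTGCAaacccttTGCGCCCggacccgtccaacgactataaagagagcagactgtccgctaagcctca
Mt2A, chr19:10838709-10838958, minus strand: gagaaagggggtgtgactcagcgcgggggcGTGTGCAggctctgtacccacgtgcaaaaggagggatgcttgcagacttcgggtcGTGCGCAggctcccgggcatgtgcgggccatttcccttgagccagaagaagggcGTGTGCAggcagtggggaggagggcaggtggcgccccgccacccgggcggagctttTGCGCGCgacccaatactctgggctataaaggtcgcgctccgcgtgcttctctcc
Mt3, chr19:10856081-10856330, minus strand: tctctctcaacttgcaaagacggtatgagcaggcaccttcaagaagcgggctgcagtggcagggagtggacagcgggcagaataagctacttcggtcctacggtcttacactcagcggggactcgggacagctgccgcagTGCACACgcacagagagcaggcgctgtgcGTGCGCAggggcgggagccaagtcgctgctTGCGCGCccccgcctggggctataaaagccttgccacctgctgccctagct
Slc30a1, chr13:106021769-106022018, plus strand: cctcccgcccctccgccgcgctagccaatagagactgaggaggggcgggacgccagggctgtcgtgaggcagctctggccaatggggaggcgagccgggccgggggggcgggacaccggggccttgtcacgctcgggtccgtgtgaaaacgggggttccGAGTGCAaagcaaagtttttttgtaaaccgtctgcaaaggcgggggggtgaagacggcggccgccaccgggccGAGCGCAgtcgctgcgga

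The Mt1a window held 6 cores, that of Mt2A 4, that of Mt3 3 and that of Slc30a1 2, and no cores overlapped each other. Slc39a14 is named only. Of 33469 rat promoter windows of this length, 20.6% held at least 1 core, 1.17% held 3 or more and 0.0747% held 5 or more. A match in these letters describes the sequence and does not show a bound site.

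Mt1a, the most changed of the 5 genes, rose between 6 and 27 months in all 4 muscles. In the TA its lowest, median and highest values were 0.780, 1.54 and 4.11 CPM at 6 months and 23.5, 92.5 and 145 CPM at 27 months. In the gastrocnemius they were 1.91, 3.11 and 4.74 CPM, against 16.6, 66.5 and 112 CPM at 27 months. The groups did not overlap in either muscle, and the lowest old library lay well above the highest young one. Soleus values moved from 2.42, 4.45 and 8.63 CPM to 15.3, 64.8 and 202 CPM, again without overlap. The diaphragm went from 1.45, 2.50 and 8.37 CPM to 5.24, 10.1 and 39.6 CPM, and here 8 of 12 old libraries lay above the highest young library while the others overlapped the young range.

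**Figure D1:**
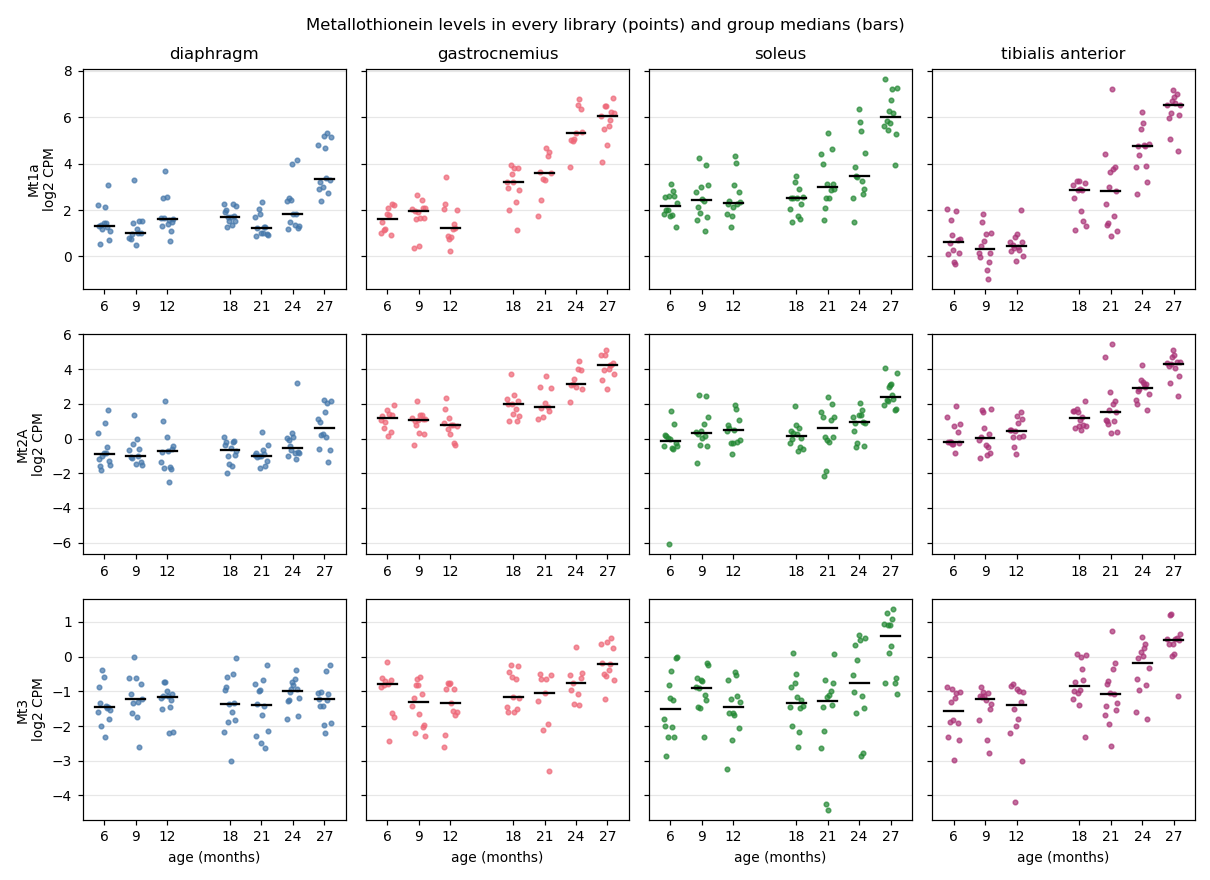
Level of Mt1a, Mt2A and Mt3 in log2 CPM (vertical axes, 1 scale per gene) against age in months (horizontal axes) in the 4 muscles. Each point is a library and each bar a group median; Mt1a in the TA moves from a median of 1.54 to 92.5 CPM, whereas Mt3 in the diaphragm stays near 0.349 to 0.411 CPM.

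The fitted log2 change of Mt1a from 6 to 27 months in limma-voom was 5.58 ± 0.57 (SE) in the TA, 4.26 ± 0.41 in the gastrocnemius, 3.91 ± 0.44 in soleus and 2.39 ± 0.33 in the diaphragm, or 47.7-, 19.2-, 15.0- and 5.26-fold. Benjamini-Hochberg adjusted p-values over all genes tested (limma) were 2.48e-14, 2.24e-14, 3.18e-12 and 1.01e-08. A gene is called here where the adjusted p is below 0.05 and the level differs more than 1.5-fold. At 27 months Mt1a, Mt2A and Mt3 were called in the soleus and TA, these and Slc30a1 in the gastrocnemius, and Mt1a and Mt2A alone in the diaphragm, which makes 2 of 5 in the diaphragm, 4 of 5 in the gastrocnemius and 3 of 5 in each of the soleus and TA. Of all genes tested, 7.52%, 22.8%, 15.0% and 27.6% were called in the diaphragm, gastrocnemius, soleus and TA.

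Mt2A, the other broadly expressed metallothionein, rose in the same 4 muscles by smaller amounts. Its lowest, median and highest values in the TA were 0.540, 0.854 and 3.68 CPM at 6 months and 5.44, 19.7 and 34.3 CPM at 27 months. For the gastrocnemius the values were 1.11, 2.23 and 3.77 CPM and then 7.15, 18.5 and 33.5 CPM. No old library of these muscles fell within the young range. In the soleus Mt2A went from 0, 0.897 and 3.00 CPM to 3.16, 5.20 and 16.4 CPM, where the 0 belongs to replicate 4, a library in which no read of the gene was counted. Leaving out 1 library at a time moved the soleus change between 2.58 and 3.21 (log2). In the diaphragm the range widened from 0.274, 0.517 and 3.13 CPM to 0.380, 1.56 and 4.69 CPM, and only 3 of 12 old libraries exceeded the highest young one. Changes in limma-voom were 3.98 ± 0.46 in the TA, 3.04 ± 0.33 in the gastrocnemius, 3.03 ± 0.46 in soleus and 1.40 ± 0.37 in the diaphragm (log2 ± SE), with adjusted p = 2.46e-12, 1.99e-12, 3.57e-08 and 0.00128.

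Mt3, best known as the metallothionein of brain, was present at low levels and rose in the 3 limb muscles. TA values ran through 0.112, 0.327 and 0.529 CPM (lowest, median, highest) at 6 months and 0.443, 1.39 and 2.33 CPM at 27 months, and 11 of 12 old libraries lay above the young range. Soleus values were 0.123, 0.342 and 0.976 CPM and 0.458, 1.53 and 2.55 CPM, with 8 of 12 above. In the gastrocnemius, where the values were 0.171, 0.562 and 0.882 CPM and 0.416, 0.850 and 1.43 CPM, 4 of 11 lay above. The diaphragm gave 0.185, 0.349 and 0.757 CPM and 0.201, 0.411 and 0.833 CPM, largely the same range. The log2 changes in limma-voom were 2.09 ± 0.29, 1.83 ± 0.36 and 0.77 ± 0.24 in TA, soleus and gastrocnemius (adjusted p = 1.41e-09, 1.06e-05 and 0.00431). In the diaphragm the change was 0.087 ± 0.25, with an interval from -0.41 to 0.58 and adjusted p = 0.806 (limma).

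The zinc transporters moved far less. Slc30a1, which lowers cytosolic zinc and is itself a known Mtf1 target, had lowest, median and highest values of 8.79, 12.0 and 15.1 CPM at 6 months and 16.8, 17.8 and 19.5 CPM at 27 months in the gastrocnemius, without overlap. In the other muscles the medians went from 19.1 to 21.6 CPM in the diaphragm, from 20.1 to 23.8 CPM in the soleus and from 17.8 to 20.6 CPM in the TA, with overlapping ranges. The gastrocnemius change was 0.59 ± 0.092 in log2 (limma-voom, adjusted p = 6.35e-08), a 1.51-fold rise that only just passed the fold limit. It fell below that limit when 1 of 5 single libraries was left out (6 months replicates 2, 4, 5 and 9 and 27 months replicate 10) and with edgeR (0.57), DESeq2 (0.56), RLE size factors (0.58), sample quality weights (0.52), no count filter (0.57) and the 9 lowest-numbered replicates of each age (0.56). The changes elsewhere were 0.28 in the soleus, 0.23 in the TA and 0.17 in the diaphragm (adjusted p = 1.62e-04, 4.84e-04 and 0.0461, limma), all under 1.5-fold. With total counts in place of TMM the changes were 0.88 in the gastrocnemius, 0.55 in the TA, 0.43 in the soleus and 0.21 in the diaphragm, the first still the only one called.

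Slc39a14 went the other way under TMM scaling, though not in the soleus under total counts. Its lowest, median and highest values were 30.6, 35.6 and 39.5 CPM at 6 months and 21.1, 27.9 and 31.8 CPM at 27 months in the TA, where 11 of 12 old libraries lay below the young range. In the gastrocnemius they were 25.7, 29.8 and 36.2 CPM and 20.2, 22.9 and 28.5 CPM, with 9 of 11 below. Median values went from 32.5 to 30.5 CPM in the diaphragm and from 30.4 to 27.4 CPM in the soleus. The log2 changes were -0.39 ± 0.052 in the gastrocnemius, -0.37 ± 0.048 in the TA, -0.16 ± 0.042 in the diaphragm and -0.12 ± 0.057 in the soleus (limma-voom, adjusted p = 1.46e-09, 1.21e-10, 0.00166 and 0.0691), none past 1.5-fold. With total counts in place of TMM the median of all genes moved at 27 months to 0.32 in the gastrocnemius, 0.34 in the TA and 0.16 in the soleus, and the change of Slc39a14 became -0.11, -0.046 and 0.030 (adjusted p = 0.0760, 0.381 and 0.681). Relative to the median gene it was lower in all 4 muscles. A change of scaling shifts all genes nearly alike, so this gap is the same under either scaling by construction. Whether the gap differs from that of other genes was not tested. The metallothionein rises kept their direction and call under either scaling.

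The course over age differed between genes and muscles. No member was called at 9 or 12 months in any muscle by limma-voom, edgeR or DESeq2, and at unadjusted p under 0.05 there was 1 of 5 in the diaphragm at 9 months (Slc39a14) and 0 in the other 7 comparisons. Few genes of any kind were called then, with 0.108% and 0.532% of genes in the diaphragm, 0.143% and 0.885% in the gastrocnemius, 0.123% and 0.353% in the soleus and 0.00851% and 0.196% in the TA. Shares of genes here and below are of calls, a stricter rule than the unadjusted p, for which no share is given. The TA estimates of Mt1a at these ages had intervals as wide as -1.95 to 1.19 on the log2 scale.

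At 18 months Mt1a had risen in the gastrocnemius and TA. Gastrocnemius values lay at 2.18, 9.08 and 15.5 CPM (lowest, median, highest) and TA values at 2.18, 7.25 and 9.61 CPM, and 9 of 11 and 8 of 12 libraries exceeded the range of 6 months. Log2 changes were 1.41 ± 0.44 and 1.76 ± 0.63 (limma-voom, adjusted p = 0.0226 and 0.0230). With the 9 lowest-numbered replicates of each age the gastrocnemius call was lost (1.41, adjusted p = 0.0527, limma). Mt3 was called beside it in the TA, at 0.85 ± 0.33 (adjusted p = 0.0342, limma), which makes 1 of 5 members in the gastrocnemius and 2 of 5 in the TA, against 4.32% and 5.45% of all genes. Mt2A missed the threshold at this age in the gastrocnemius (0.86, adjusted p = 0.114, limma), but was called by edgeR and DESeq2. In the diaphragm and soleus no member was called at 18 months by any of the 3 tools, where limma-voom called 2.25% and 2.84% of genes. At the looser threshold of an unadjusted p under 0.05 there was 1 of 5 (Slc39a14) in each.

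By 21 months Mt1a and Mt2A were called in both of these muscles, at 1.95 ± 0.44 and 1.15 ± 0.37 in the gastrocnemius and 2.31 ± 0.60 and 1.88 ± 0.49 in the TA (log2 ± SE, limma-voom), or 2 of 5 members in each against 5.81% and 6.47% of genes. The TA group of this age holds a library that stands apart. Replicate 7 had 147 CPM of Mt1a, against a median of 5.92 and a highest value of 21.3 CPM in the other 12 libraries, and it was also highest in Mt2A (43.5 CPM) and Mt3 (1.65 CPM). The same library was high in Chrng, a gene looked at after the library stood out, which encodes the fetal subunit of the acetylcholine receptor (44.3 CPM against a highest of 9.15 in the others), but not in Slc30a1 or Slc39a14. Among other genes looked at in this way it also lay above all others in Chrnd (180.1 against a highest of 83.9 CPM), Runx1 (319.9 against 135 CPM), Myog (152 against 63.5 CPM) and the macrophage marker Cd68 (13.8 against 9.79 CPM). Fkbp5, a gene that glucocorticoids raise, was looked at as well and lay lower, at 17.8 CPM against a median of 28.1 CPM in the others. The part of these in its metallothionein levels was not tested. Without it the changes at 21 months were 1.99 for Mt1a and 1.62 for Mt2A (adjusted p = 0.00462 and 0.00596, limma), both still called. In the diaphragm and soleus limma-voom called no member, where it called 1.68% and 2.61% of genes. At the looser threshold of an unadjusted p under 0.05, for which no share of genes is given, there were 1 of 5 and 3 of 5. Both edgeR and DESeq2 called Mt1a in the soleus at this age, 1 of 5, and none in the diaphragm.

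At 24 months the gastrocnemius and TA had moved furthest. Mt1a lay at 14.3, 39.9 and 111 CPM (lowest, median, highest) in the gastrocnemius and 6.53, 27.0 and 75.0 CPM in the TA, where each library was above the 6-month range. The soleus was divided, with values from 2.80 to 81.3 CPM around a median of 10.9 and 8 of 12 libraries above the range of 6 months. Its change was 1.56 ± 0.48 (limma-voom, adjusted p = 0.00895), the only call in that muscle. Calls numbered 2 of 5 in the gastrocnemius (Mt1a and Mt2A), 3 of 5 in the TA (the metallothioneins) and 1 of 5 in the soleus, against 18.8%, 14.5% and 6.51% of genes. With total counts Slc30a1 was called as well in the gastrocnemius (0.75, adjusted p = 9.61e-08, limma), where the median of all genes lay at 0.28. No member was called in the diaphragm by limma-voom, edgeR or DESeq2, with 2 of 5 at unadjusted p under 0.05 (Slc30a1 and Slc39a14) and 2.68% of genes called. There replicates 5 and 9 alone exceeded the 6-month range of Mt1a, at up to 17.6 CPM, and the change of Mt1a was 0.72 with them and 0.36 without. Over the 6 later ages the members were called 2 times for diaphragm, 9 for gastrocnemius, 4 for soleus and 10 for TA. All of these comparisons share the libraries of 6 months.

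**Figure D2:**
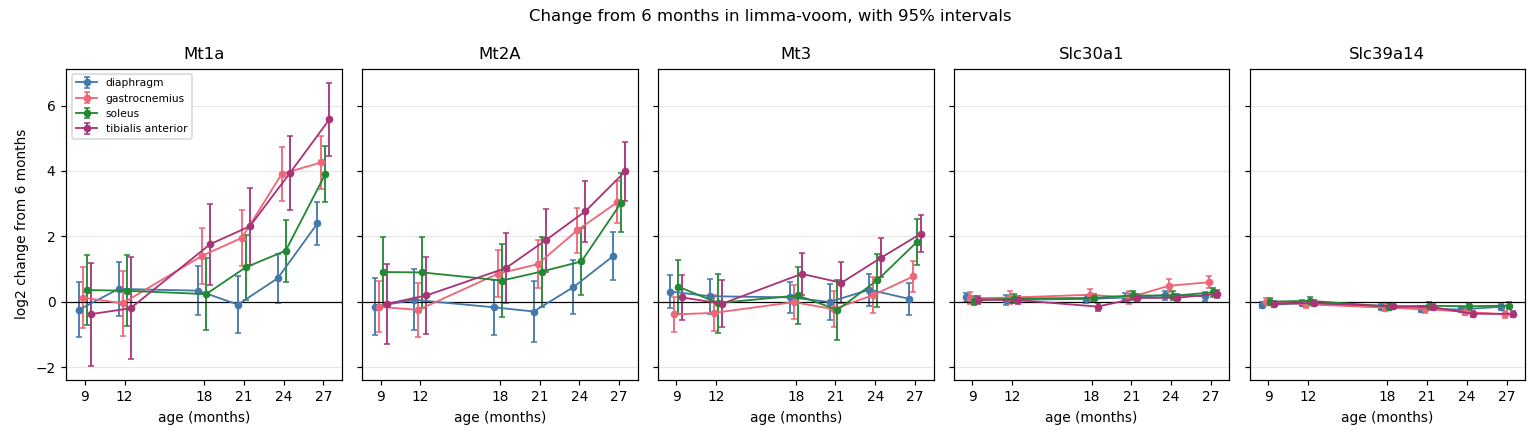
Log2 change of each gene from 6 months (vertical axis) at each later age in months (horizontal axis), with a line per muscle and bars for the 95% interval (limma-voom). Mt1a reaches 5.58 in the TA and 2.39 in the diaphragm at 27 months, while Slc30a1 stays at or below 0.59 and Slc39a14 lies below 0 at 27 months in all 4 muscles under TMM scaling.

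The steps between neighbouring late ages show where the rises lay. From 21 to 24 months Mt1a rose by 1.95 ± 0.33 and Mt2A by 1.04 ± 0.30 in the gastrocnemius (log2 ± SE, limma-voom, adjusted p = 1.02e-05 and 0.00602), and in the TA Mt1a rose by 1.61 ± 0.34, Mt2A by 0.89 ± 0.31 and Mt3 by 0.77 ± 0.26 (adjusted p = 3.01e-04, 0.0274 and 0.0249). Without TA replicate 7 of 21 months the step of Mt1a was 1.94. That is 2 of 5 and 3 of 5 members, where 6.72% and 3.52% of genes were called. In this step limma-voom called none of 5 members in the diaphragm, where 0% of genes were called, and none in the soleus, where 0.534% were, and 0 and 1 of 5 (Mt3) had an unadjusted p under 0.05. No other tool was run on the late steps.

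From 24 to 27 months the order turned. Mt1a rose by 2.35 ± 0.32 in the soleus, 1.68 ± 0.29 in the diaphragm and 1.65 ± 0.28 in the TA (limma-voom, adjusted p = 3.62e-08, 2.67e-06 and 2.71e-06). In the gastrocnemius its step was 0.36 ± 0.28, with an interval from -0.20 to 0.92. Mt2A rose by 1.80, 0.95, 1.22 and 0.85 in the soleus, diaphragm, TA and gastrocnemius (adjusted p = 1.36e-05, 0.0200, 5.36e-05 and 0.0347, limma). Mt3 rose by 1.17 in the soleus and 0.74 in the TA (adjusted p = 0.00283 and 0.00530, limma). The members called were thus 2 of 5 in the diaphragm, 1 of 5 in the gastrocnemius, 3 of 5 in the soleus and 3 of 5 in the TA, against 4.39%, 0.624%, 4.52% and 6.08% of genes. Over both steps this gives 2, 3, 3 and 6 calls. Whether the steps differed between muscles was not tested, and both share the libraries of 24 months. The diaphragm call of Mt2A was lost with sample quality weights (0.67, adjusted p = 0.126).

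Trend models of log2 CPM on age described the same courses, with a trend taken where the Bayesian information criterion lay over 6 below that of no trend. Mt1a and Mt2A were late rises in all 4 muscles, with the inflection of Mt1a at 21.2 months in the gastrocnemius, 24.8 in the diaphragm, 25.5 in soleus and 27 in the TA, the last being the end of the range searched. Mt3 was a late rise in the soleus, a linear rise in the gastrocnemius and TA and without trend in the diaphragm. Slc30a1 rose linearly in the gastrocnemius and soleus, and was a late rise in the TA under total counts alone, while Slc39a14 fell linearly in each muscle under TMM but in the diaphragm alone under total counts. A trend was found for 17 of 20 pairs of gene and muscle. With total-count scaling it was found for 15, and the class was the same for 15.

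Whether the change from 6 to 27 months differed between muscles was tested directly, as an interaction in limma-voom over the libraries of all muscles. The rise of Mt1a was larger in each limb muscle than in the diaphragm, by 1.82 ± 0.66 in the gastrocnemius, 1.45 ± 0.59 in soleus and 3.14 ± 0.72 in the TA (log2 ± SE, adjusted p = 0.0143, 0.0402 and 8.94e-05). It was also larger in the TA than in the soleus, by 1.69 ± 0.67 (adjusted p = 0.0346, limma). The gastrocnemius could not be set apart from the soleus or the TA in this respect, with differences of -0.37 ± 0.60 for the soleus and 1.32 ± 0.74 for the TA and intervals from -1.55 to 0.82 and -0.12 to 2.77. Mt2A rose more in the gastrocnemius and TA than in the diaphragm, by 1.60 ± 0.64 and 2.54 ± 0.68 (adjusted p = 0.0285 and 7.27e-04, limma). Its difference between soleus and diaphragm, 1.58 ± 0.72, had adjusted p = 0.0746 in limma and was called by edgeR.

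For Mt3 the split ran elsewhere. Its rise in the soleus and TA exceeded that in the diaphragm by 1.68 ± 0.42 and 1.95 ± 0.44 (limma-voom, adjusted p = 6.34e-04 and 5.79e-05) and that in the gastrocnemius by 1.04 ± 0.41 and 1.32 ± 0.42 (adjusted p = 0.0308 and 0.0110, limma). The first of the gastrocnemius differences was lost with edgeR (0.90, adjusted p = 0.0702) and with total counts (0.89, adjusted p = 0.0772). Slc30a1 and Slc39a14 showed differences under 1.5-fold with TMM. The change of Slc30a1 was higher in the gastrocnemius than in the diaphragm by 0.38 ± 0.10 and that of Slc39a14 differed by -0.28 ± 0.072 (adjusted p = 0.00104 and 3.85e-04, limma). Under total counts the first became 0.67 and was called (adjusted p = 3.13e-07, limma), where the median of all genes lay at 0.30. Counting calls over the 6 pairs in the order gastrocnemius against diaphragm, soleus against diaphragm, TA against diaphragm, soleus against gastrocnemius, TA against gastrocnemius and TA against soleus gives 2, 2, 3, 1, 1 and 1 of 5 members. The shares of all genes called in these pairs were 21.6%, 11.9%, 20.3%, 14.5%, 7.32% and 15.8%. None of the 10 calls held with the Bonferroni adjustment over all genes. The gastrocnemius libraries carry a running number series of their own in the labels, which cannot be told apart from that muscle.

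**Figure D3:**
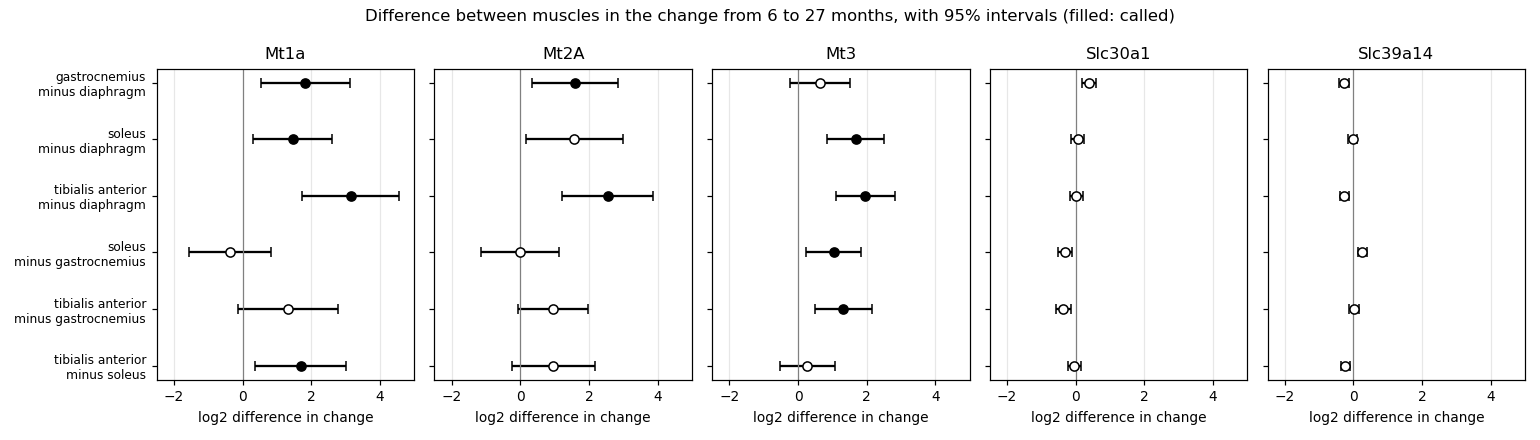
Difference between 2 muscles in the log2 change from 6 to 27 months (horizontal axis) for each of 6 muscle pairs (rows) and 5 genes (panels), with 95% intervals from limma-voom over the libraries of all muscles. Filled points are called; the largest is Mt1a in the TA minus the diaphragm at 3.14, and no point of Slc30a1 or Slc39a14 is filled.

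Before the rises, at 6 months, levels also differed between muscles. In each pair the share of members called was near or below that of all genes. The number series of the gastrocnemius enters its pairs here as well. Median Mt1a was highest in the soleus at 4.45 CPM, followed by gastrocnemius (3.11), diaphragm (2.50) and TA (1.54), and no neighbours in this order were called apart, while TA and soleus were, with a difference of -1.51 ± 0.62 for TA minus soleus (limma-voom, adjusted p = 0.0219). Mt2A was highest in the gastrocnemius, with a median of 2.23 CPM against 0.897 in the soleus, 0.854 in the TA and 0.517 in the diaphragm. The gastrocnemius exceeded the diaphragm by 1.77 ± 0.56 (adjusted p = 0.00276, limma) and the difference of soleus minus gastrocnemius was -1.5 ± 0.54 (adjusted p = 0.00783, limma), the latter not called with total counts (adjusted p = 0.0513). Mt3 medians lay within 0.327 to 0.562 CPM with no pair called.

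Slc30a1 was lowest in the young gastrocnemius, at 8.79, 12.0 and 15.1 CPM (lowest, median, highest), below nearly all libraries of the soleus (16.9, 20.1 and 23.2 CPM), diaphragm (14.8, 19.1 and 21.7 CPM) and TA (13.2, 17.8 and 19.0 CPM). The differences were -0.65 ± 0.078 from the diaphragm and 0.75 ± 0.077 for the soleus over the gastrocnemius (adjusted p = 1.05e-14 and 7.66e-19, limma). Under total counts the TA was also called lower than the soleus (-0.62, adjusted p = 3.85e-13, limma). Median Slc39a14 ran from 29.8 CPM in the gastrocnemius through 30.4 in the soleus and 32.5 in the diaphragm to 35.6 in the TA, all differences being under 1.5-fold. Of 5 members, 2 were called between gastrocnemius and diaphragm, 2 between soleus and gastrocnemius and 1 between TA and soleus, 5 in all, against 37.3%, 45.4% and 42.9% of genes. For soleus against diaphragm, TA against diaphragm and TA against gastrocnemius, where 23.9%, 35.1% and 17.3% of genes were called, limma-voom and edgeR called none of 5, and 1, 1 and 2 had an unadjusted p under 0.05. Under total counts the median of all genes lay between -0.49 (gastrocnemius minus diaphragm) and 0.47 (soleus over gastrocnemius).

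By 27 months the order of median Mt1a had changed to TA (92.5 CPM), gastrocnemius (66.5), soleus (64.8) and diaphragm (10.1). That of Mt2A was TA (19.7 CPM), gastrocnemius (18.5), soleus (5.20) and diaphragm (1.56). The ranges of TA, gastrocnemius and soleus overlapped for Mt1a, at 23.5 to 145, 16.6 to 112 and 15.3 to 202 CPM. Differences between old muscles were not tested.

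Libraries of 1 muscle and 1 age also differed among themselves, most of all in the metallothioneins. The SD of log2 CPM over libraries of a group was 0.34 to 1.75 for Mt1a, against 0.064 to 0.25 for Slc30a1 and 0.069 to 0.19 for Slc39a14. In the old soleus Mt1a ran from 15.3 to 202 CPM. After the mean of each age was removed, Mt1a and Mt2A varied together in each muscle, with Pearson's r of 0.80 in the diaphragm (n = 83), 0.72 in the gastrocnemius (n = 73), 0.56 in the soleus (n = 84) and 0.84 in the TA (n = 85), and Spearman's rho of 0.70, 0.70, 0.67 and 0.79. The two-sided permutation p within ages was 1.0e-05 in all 4, the smallest that 100000 resamples can give, and 4.0e-05 for r and 4.7e-05 for rho after Benjamini-Hochberg adjustment over 28 relations. Without the 2 libraries farthest out in Mt1a, r was 0.76, 0.69, 0.55 and 0.79 in the same order. It was 0.85, 0.72, 0.50 and 0.70 within 6 to 18 months and 0.78, 0.73, 0.67 and 0.92 within 21 to 27 months. Reads shared between the copies, if any, would add to this relation, which was not tested.

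For Mt3 against Mt1a the relation passed the threshold in the TA alone, with r = 0.37 and rho = 0.29 (permutation, adjusted p = 0.00260 and 0.0260), where it was 0.59 in the later and 0.12 in the earlier ages and 0.24 without the 2 farthest libraries. In the diaphragm, gastrocnemius and soleus r was 0.033, -0.18 and 0.11. Slc30a1 was weakly related to Mt1a, with r from 0.14 in the soleus to 0.29 in the gastrocnemius, past the threshold in the gastrocnemius and TA (permutation, adjusted p = 0.0290 and 0.0240 for r, 0.0780 and 0.0360 for rho). In the gastrocnemius r was 0.24 without the 2 farthest libraries and no longer past it. Within the earlier and the later ages it passed in neither muscle, with r = 0.27 and 0.33 in the gastrocnemius and 0.20 and 0.34 in the TA. For Slc39a14 against Mt1a, r ran from -0.24 in the TA to 0.26 in the diaphragm (permutation, adjusted p = 0.0530 and 0.0290 for r, 0.0370 and 0.200 for rho). The diaphragm value was 0.16 without the 2 farthest libraries, 0.52 within 6 to 18 months (permutation, adjusted p = 0.00180) and 0.083 within 21 to 27 months. In the TA it was -0.30 without the 2 farthest libraries (permutation, adjusted p = 0.0210), which was then past the threshold. Exporter and importer were inversely related in the gastrocnemius, r = -0.35 and rho = -0.35 (permutation, adjusted p = 0.00580 and 0.0100), and in the soleus, r = -0.28 and rho = -0.28 (adjusted p = 0.0290 and 0.0310). In the diaphragm and TA r was -0.060 and -0.14. Within 6 to 18 months the gastrocnemius relation was -0.48 (permutation, adjusted p = 0.00550) and that of the soleus -0.16 (0.380). Within 21 to 27 months they were -0.18 (0.470) and -0.36 (0.0630), so that neither passed the threshold for r in both age spans. In the TA r was 0.21 in the earlier and -0.40 in the later ages (permutation, adjusted p = 0.240 and 0.0400). Of the 20 relations between members, 10 had an adjusted p under 0.05 for r.

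Genes that muscle fibres express after loss of their nerve varied with Mt1a. The mean log2 CPM of 9 such genes, among them Chrng, Chrna1, Runx1, Myog and Gadd45a, gave r = 0.60 with Mt1a in diaphragm, 0.80 in gastrocnemius, 0.64 in soleus and 0.80 in the TA after removal of age means, and rho = 0.59, 0.77, 0.49 and 0.75 (permutation, adjusted p from 4.0e-05 to 7.0e-05 for r and from 4.7e-05 to 1.7e-04 for rho). The raw p for r lay between 1.0e-05 and 2.0e-05. Without the 2 farthest libraries r was 0.66, 0.80, 0.60 and 0.72. Within 6 to 18 months it was 0.36, 0.67, 0.23 and 0.62 and within 21 to 27 months 0.73, 0.92, 0.77 and 0.87, and in the soleus the earlier relation did not pass the threshold (adjusted p = 0.240, permutation). The points share their libraries, depth and scaling with Mt1a, and the list was chosen with earlier results of these data known.

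**Figure D4:**
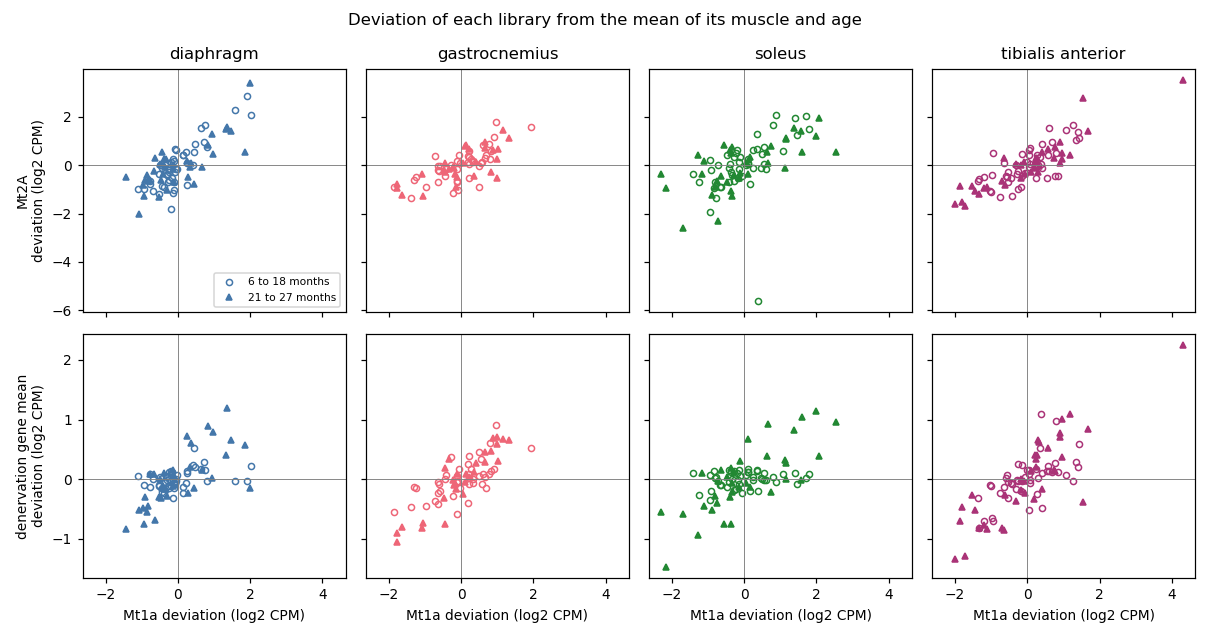
Deviation of Mt1a from the mean of its muscle and age (horizontal axes, log2 CPM) against the same for Mt2A (upper row) and for the mean of 9 denervation genes (lower row), with a point per library. Open circles are 6 to 18 months and filled triangles 21 to 27 months; the TA point far to the right is replicate 7 of 21 months, with 147 CPM of Mt1a, and the low soleus point in the upper row is the library without a read of Mt2A.

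The mean of 8 macrophage markers was also compared with Mt1a. It gave r = 0.49 in the TA, 0.39 in the gastrocnemius, 0.26 in soleus and 0.21 in the diaphragm, and rho = 0.39, 0.32, 0.24 and 0.21 (permutation, adjusted p for r = 3.1e-04, 0.00340, 0.0380 and 0.10, and for rho 0.00150, 0.0190, 0.0520 and 0.0910). Within 6 to 18 months r was 0.082, 0.31, 0.50 and 0.35 in the same order (permutation, adjusted p = 0.650, 0.10, 0.00230 and 0.0220). Within 21 to 27 months it was 0.74, 0.49, 0.061 and 0.10 (adjusted p = 1.0e-04, 0.0290, 0.780 and 0.670, permutation). The relation thus passed the threshold in the later ages for TA and gastrocnemius and in the earlier ages for soleus and diaphragm. Without the 2 farthest libraries r was 0.35, 0.33, 0.24 and 0.23, the soleus being no longer past the threshold (permutation, adjusted p = 0.0530). The summed macrophage level ran from 43.5 to 68.3 CPM at 6 months and from 92.6 to 194 CPM at 27 months in the TA, without overlap, from 92.1 to 164 and 176 to 311 CPM in the gastrocnemius, likewise without overlap, from 138 to 222 and 220.0 to 306 CPM in the soleus and from 113 to 192 and 165 to 280.0 CPM in the diaphragm. At 27 months 8 of 8 markers were called higher in the gastrocnemius and TA and 1 of 8 in the soleus and diaphragm. Their part in the metallothionein rises was not tested.

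The other zinc genes were read from lists of the Slc30 and Slc39 families. Of the Slc30 exporters 8 of 10 listed were tested in each muscle, and at 27 months 1 was called higher in diaphragm, 4 in gastrocnemius, 1 in soleus and 2 in TA, with none lower. Slc30a2, which loads zinc into vesicles, had medians of 0.963 and 5.30 CPM at 6 and 27 months in the gastrocnemius and 1.09 and 7.98 CPM in the TA, without overlap in either. Its log2 changes were 2.43 ± 0.30 and 2.86 ± 0.22 there and 0.59 ± 0.24 in the diaphragm (limma-voom, adjusted p = 8.14e-11, 2.05e-19 and 0.0372). In the soleus it was already at 3.85 CPM at 6 months and its change of 0.32 ± 0.14 was not called (adjusted p = 0.0489, limma). Slc30a3, known as the exporter of synaptic vesicles, rose from a median of 1.40 to 8.34 CPM in the soleus, from 2.81 to 8.28 in the gastrocnemius and from 2.58 to 7.13 in the TA, by 2.50 ± 0.25, 1.51 ± 0.18 and 1.46 ± 0.21 (limma-voom, adjusted p = 1.82e-14, 1.81e-11 and 2.07e-09). In the diaphragm it stood at 8.32 and 8.83 CPM. The median change over the list was 0.020 to 0.40 over the muscles, against at most 0.042 over all genes.

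The Slc39 importers went in both directions. Of 14 listed, 11 were tested in the diaphragm, gastrocnemius and soleus and 10 in the TA. The calls were 0 higher and 1 lower in the diaphragm, 1 and 0 in the gastrocnemius, 1 and 1 in the soleus and 3 and 1 in the TA. Slc39a8, which like Slc39a14 carries zinc and manganese, rose in the gastrocnemius and TA by 0.89 ± 0.18 and 0.82 ± 0.18 (limma-voom, adjusted p = 1.31e-05 and 3.71e-05), from medians of 1.12 and 0.939 CPM to 1.90 and 1.59 CPM. Slc39a10 fell in the diaphragm and TA, with log2 changes of -0.70 ± 0.090 and -0.67 ± 0.060 (adjusted p = 1.06e-09 and 7.72e-17, limma), with TA medians of 39.5 and 25.4 CPM that did not overlap in range. Mtf1, the factor that binds metal response elements, was not called in any muscle, with changes of 0.067, -0.21, -0.058 and -0.21 in the diaphragm, gastrocnemius, soleus and TA. Of 8 genes of copper handling, none was called in the diaphragm and soleus and 1 each in the gastrocnemius (Slc31a2, 0.64 ± 0.088) and TA (Atp7b, 0.98 ± 0.25), both named after their values were seen. The fourth metallothionein of the files, Mt4, did not pass the filter on low counts.

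Other agents that raise metallothioneins have marker genes of their own. Of 10 genes that glucocorticoids raise, 2 were called higher in diaphragm, 1 higher and 1 lower in gastrocnemius, 2 higher in the soleus, and 3 higher and 4 lower in the TA. Fkbp5 was the 1 gene called lower in the gastrocnemius and among the 4 called lower in the TA, with log2 changes of -1.17 ± 0.16 and -1.0 ± 0.14 (limma-voom, adjusted p = 1.89e-09 and 3.90e-09). The genes of this list called higher are not named here, so Fkbp5 does not stand for the list. The median summed level of the whole list was higher at 27 than at 6 months in each muscle, with overlapping ranges. It went from 1186 to 1279 CPM in the diaphragm, 1262 to 1359 in the gastrocnemius, 926 to 1212 in the soleus and 1225 to 1391 in the TA. Of the interleukin-6 and acute-phase genes 0 of 10, 2 of 9, 2 of 10 and 5 of 9 were called higher in the diaphragm, gastrocnemius, soleus and TA. Of 6 oxidant-responsive genes 1, 4, 1 and 3 were called higher in the same order. Hmox1, which breaks down haem, rose by 1.17, 2.56, 1.30 and 3.03 (adjusted p = 1.14e-08, 2.73e-16, 2.50e-12 and 1.12e-21, limma). All 9 denervation genes were called higher in each muscle, with median changes of 1.25, 3.34, 2.25 and 4.49 against 0.0026 to 0.042 over all genes. Of all genes tested, 7.52%, 22.8%, 15.0% and 27.6% were called in either direction, in the same order. The lists were chosen with earlier results of these data known, so the denervation calls are no separate evidence. The part of any of these in the rises of Mt1a and Mt2A was not tested.

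Markers of other cells were counted at 27 months in the order diaphragm, gastrocnemius, soleus and TA. Adipocyte markers were called higher for 0, 4, 4 and 4 of 5 genes, T cell markers for 2 of 6, 3 of 4, 2 of 4 (with 1 lower) and 4 of 4, and Schwann cell markers for 0, 2 (with 2 lower), 2 and 3 of 6. Fibroblast markers were called lower for 3, 1, 1 and 0 of 5 and endothelial markers for 0, 1, 1 and 1 of 5, and red cell markers for none of 4 in either direction. Muscle fibre genes were called higher for 1 and 1 of 6 in the diaphragm and soleus and lower for 2 and 3 in the gastrocnemius and TA. Their median summed level went from 70663 CPM at 6 months to 83605 at 27 months in the diaphragm. In the limb muscles it went from 154266 to 98170 CPM in the gastrocnemius, 101706 to 76658 in the soleus and 174936 to 89214 in the TA. Liver makes much metallothionein and Slc39a14, so hepatocyte transcripts were also read. They were called higher for 0 of 3, 1 of 3, 0 of 6 and 1 of 5 genes and lower for 3 of 6 in the soleus. Their summed level in the soleus ran from 36.6 to 1680 CPM at 6 months and 49.8 to 2306 CPM at 27 months. The soleus library highest in them, replicate 4 of 27 months, had 76.5 CPM of Mt1a beside a group median of 64.8, and the next, replicate 11 of 18 months, had 5.92 CPM beside 5.73. In the TA the highest, replicate 9 of 27 months, was the lowest of its group in Mt1a, at 23.5 CPM. The next, replicate 2 of 21 months, had 2.52 CPM beside a group median of 7.02. In the gastrocnemius the highest, replicate 1 of 27 months, had 16.6 CPM beside 66.5. The next, replicate 6 of 21 months, had 20.3 CPM beside 12.2. In the diaphragm replicate 1 of 24 months had 2.24 CPM beside 3.55, and replicate 7 of 9 months lay near its group median of 2.02. The part of hepatocyte transcripts in the metallothionein levels was not tested.

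Over the 28 means of muscle and age, after the mean of each muscle was removed, the courses most like that of Mt1a among 10411 genes were those of Lmnb2 (a nuclear lamin, r = 0.99), Lgals1 (galectin-1, r = 0.99) and Mvp (the major vault protein, r = 0.99), with Mt2A in rank 4 (r = 0.98). For Mt2A they were Mt1a (0.98), Mvp (0.98) and Klhl29 (0.97). The course of Mt3 was most like those of Sept9 (a septin, 0.94), Aebp1 (0.92) and Tmsb10 (an actin-binding thymosin, 0.92), with Mt2A and Mt1a only in ranks 98 and 166. Slc30a1 ran closest to Mcm4 (a subunit of the replicative helicase, 0.94), Trps1 (0.92) and Gas5 (0.91), and Slc39a14 to Dennd5a (0.95), Hmcn1 (0.94) and RGD1311756 (0.93). Slc39a14 ran opposite to the other members under TMM scaling, with r from -0.66 for Mt3 to -0.81 for Mt1a. For Mt1a it stood in rank 9353, so that many genes ran more opposite. These courses were not computed under total counts, where Slc39a14 had a trend in the diaphragm alone. These 28 points come from the same libraries and scaling, and many genes that rise late share such a course.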

How the data were processed

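Total RNA of 4 muscles was sequenced from strand-specific, ribosomal-RNA-depleted libraries, with 1 library per muscle and animal. The authors counted reads per gene with the ArrayStudio pipeline on the rat genome reference 6.0 and deposited raw counts. The aligner is not given in the sources used here. From these counts, each muscle was fitted with limma-voom (R 4.3.3, limma 3.58.1, edgeR 4.0.16) after TMM scaling and a filter on low counts (minimum count 10, minimum total 15), with age as a factor. The range of library totals sets the precision of low genes such as Mt3. Calls needed a Benjamini-Hochberg adjusted p under 0.05 over all genes tested and a change over 1.5-fold. Muscles were compared in 1 fit of all libraries. DESeq2 1.42.0, edgeR, other scalings, filters, weights and left-out libraries were alternatives. Relations used 100000 permutations within ages (Python 3.11.15). The limma-voom tests of 27 against 6 months were checked on simulated counts. Log2 changes of 1 were recovered for 84% of genes in the gastrocnemius and 99% in the TA, with 95% in the diaphragm and soleus. The simulation gave all genes the same dispersion and changed only genes more abundant than Mt3. It thus does not cover low genes such as Mt3 or the wide spread of Mt1a between libraries.

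The members and gene lists were chosen with earlier results of these data known, and 1 gene of the denervation list is not reported here and was left out of it. Named beside the members were zinc and copper genes called in 2 or more muscles at 27 months, up to 3 genes of each other list and the 3 genes most like each member. P-values measure the spread between libraries, and libraries of different muscles could not be tied to 1 animal.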

Additional observations from a re-analysis of the deposited data

Results flagged for a closer look

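The interaction test of the change from 6 to 27 months between muscle pairs (limma-voom) gave 10 calls. For Mt1a the change was larger than in the diaphragm by 1.82 (log2) in the gastrocnemius, 1.45 in soleus and 3.14 in the TA, and larger in the TA than in the soleus by 1.69. For Mt2A it was larger than in the diaphragm by 1.60 in the gastrocnemius and 2.54 in the TA. For Mt3 the soleus and TA exceeded the diaphragm by 1.68 and 1.95 and the gastrocnemius by 1.04 and 1.32. In the gastrocnemius at 21 months, 1 library lay below the others in Slc30a1, its gap to the nearest library being 0.498 of the whole range of the group in log2 CPM. This was 1 of 15 groups of 1 gene tested for such a library, and chance alone flags about 1 in 20. Only groups of 9 or 10 libraries were tested, which are those of the gastrocnemius at 6, 21 and 24 months. All larger groups, among them the TA at 21 months and the soleus at 6 months, were not tested in this way.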

How the results depend on the processing

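Leaving out each library of 6 and 27 months in turn gave 2 to 2 members called at 27 months in the diaphragm, 3 to 4 in the gastrocnemius, 3 to 3 in the soleus and 3 to 3 in the TA. With the Bonferroni adjustment 1 member remained called at 27 months in the diaphragm, calls over the later ages were 1 in the diaphragm, 5 in the gastrocnemius and 5 in the TA, those over the late steps were 1 in each of these muscles, differences of change gave 0 and young muscles 2. A 2-fold limit gave 2 members at 27 months in the gastrocnemius, 1 and 3 calls over the late steps in the diaphragm and TA, and 3 between young muscles. Sample quality weights gave 1 call over the late steps in the diaphragm. Relations between members past the threshold were 6 within 6 to 18 months and 6 within 21 to 27 months, where fewer libraries entered. No change reversed its direction past a threshold. Shares of all genes called under these settings, and under the blocks described next, are not given. The counts thus describe the members alone. Leaving out TA replicate 7 of 21 months, or diaphragm replicates 5 and 9 of 24 months, was chosen after seeing the data. The low counts of Mt3 and Mt2A limit the precision of their values.

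The labels do not say that equal numbers mark 1 animal. Same-numbered libraries of 1 age in different muscles had a median correlation of 0.13 (lowest -0.62) and other-numbered ones -0.017, and in 332 of 936 library and muscle pairings the own number correlated best, against 81 expected with each library equally likely. As not every pair correlated over 0.1, the numbers were not taken as pairs. The own number correlated best far more often than expected, so some numbers likely mark 1 rat across muscles. The tests between muscles treat libraries as independent and leave such pairing out. Within a muscle the replicate number was also set as a block, which joins libraries of different ages and so of different rats. Same-numbered libraries of 1 muscle at different ages had a median correlation of 0.016, against 6.5e-05 for other numbers. With this block 2 members were called at 27 months in the diaphragm. Mt2A became called in the soleus at 24 months (1.06, adjusted p = 0.0396, limma) and in the TA at 18 months (1.02, adjusted p = 0.0438, limma). Over the later ages this block gave 5 calls in the soleus and 11 in the TA. In the fit of all muscles the block was age together with replicate number, and 12 differences of change were called in place of 10. In these, Mt2A became called for soleus minus diaphragm (1.46, adjusted p = 0.0219) and TA minus soleus (1.17, adjusted p = 0.0477).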
